A study of Mus musculus with 12 samples.

Results

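The genes described here are 41 immediate-early and stress response genes, named on a list of this class. Each is read at the probe set that carries exactly 1 gene symbol, equal to the member. All 41 of 41 members were measured among 19938 genes in all, each by 1 such probe set. Members were chosen by name, without a threshold on their values.

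The study measured transcripts in peritoneal macrophages from female mice on 1-colour Affymetrix arrays, 3 in each of 4 groups. The groups were Nfkbiz-/- cells given lipopolysaccharide (LPS) at 1 µg/ml for 4 h, wild-type (C57Bl/6) cells given the same, untreated Nfkbiz-/- cells and untreated C57Bl/6 cells. Nfkbiz encodes IκBζ, an LPS-inducible nuclear protein of the IκB family, and LPS is a bacterial cell-wall component sensed through TLR4. In all groups, untreated ones included, cells washed out of the peritoneum had been plated and kept in culture before treatment, so that untreated cells are not freshly taken cells. The labels give neither the age of the mice nor the origin of the replicates, which may share mice. The p-values thus reflect only how far these samples differ, possibly for technical reasons.

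Immediate-early genes are switched on within minutes of a signal, without new protein synthesis, by kinases that act on transcription factors already present in the cell. Most of them encode short-lived regulators: transcription factors of the AP-1, Egr, Klf and Nr4a families, phosphatases that switch off the mitogen-activated protein (MAP) kinases, and proteins that destroy mRNA. Many of their own transcripts decay quickly, so that in macrophages given LPS part of the class peaks early and is near rest again hours later. A single time was measured, 4 h, so that an earlier peak is not seen in these data.

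Values are deposited intensities on a linear scale. Differences are log2 differences from limma with the standard error (SE) of the fit, and a gene is called where its Benjamini-Hochberg adjusted p over all 19938 genes is under 0.05. The targeted gene, Nfkbiz, read 1568, 1335 and 1634 in LPS-treated knockout cells, against 3371, 3786 and 3079 in LPS-treated wild-type cells. Without LPS it read 267, 286 and 274 in knockout, against 463, 431 and 406 in wild type, so that every knockout array lay below every wild-type array of its treatment. The knockout signal still rose with LPS, by 2.45 on the log2 scale. No source used here says whether the probe set lies inside or outside the deletion, so that these values check the labels only in part. All 10 macrophage markers were measured, with mean intensities from 713 to 14260 and all of them above the median gene. Their summed intensity ran from 56361 to 57507 in LPS-treated knockout, 54523 to 54696 in LPS-treated wild-type, 60689 to 64061 in untreated knockout and 60475 to 62277 in untreated wild-type cells. The measured markers of B, T, NK and mast cells, neutrophils, eosinophils and mesothelial or stromal cells had mean intensities of 387 or less. All 4 measured B cell markers and 3 of 5 mast cell markers were nevertheless above the median gene. In such bulk samples, fewer cells of a type and less RNA per cell cannot be told apart.

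The LPS-treated knockout arrays differed among themselves on these genes, replicate 2 most. On LPS-treated knockout replicate 2, 10 members read at least 2-fold below the mean of the other arrays of its group (Fos, Ier3, Dusp5, Nr4a1, Nr4a2, Nr4a3, Zfp36l1, Myc, Bhlhe40 and Per1), and Plk2 read at least 2-fold above it. Over all genes, 1.95% were that far off on the same array, in either direction. On replicate 1 of the same group 4 members were that far above the mean of the others (Nr4a1, Nr4a2, Nr4a3 and Per1) and Plk2 below. On replicate 3, 4 were above (Fos, Dusp5, Nr4a1 and Myc). These means include replicate 2, so that its values can place replicates 1 and 3 far from them. Nr4a1, for example, read 1026 on replicate 1 and 1030 on replicate 3, against 219.8 on replicate 2. On the 9 arrays outside this group, 1 member was that far off in all, and 0.075% to 1.103% of all genes. The summed intensity of 5 mast cell markers was 1008, 509.5 and 1671 in treated knockout cells and 1130, 755.2 and 2063 in untreated knockout cells, lowest on replicate 2 both times. The sum of 4 B cell markers was also lowest on it, at 953, 563.3 and 1001 in treated and 1311, 720.8 and 1194 in untreated knockout cells. That of 5 neutrophil markers was highest on it, at 693, 829 and 690.5 in treated and 642, 685 and 605 in untreated knockout cells. Their part in the result was not tested. Calls that changed without LPS-treated knockout replicate 2 are given beside the gene or the comparison. Those fits kept untreated knockout replicate 2, whose deviations across genes correlated with those of treated replicate 2 at 0.568. No fit left out both arrays, so that the values given are not those without the pair.

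**Figure D1:**
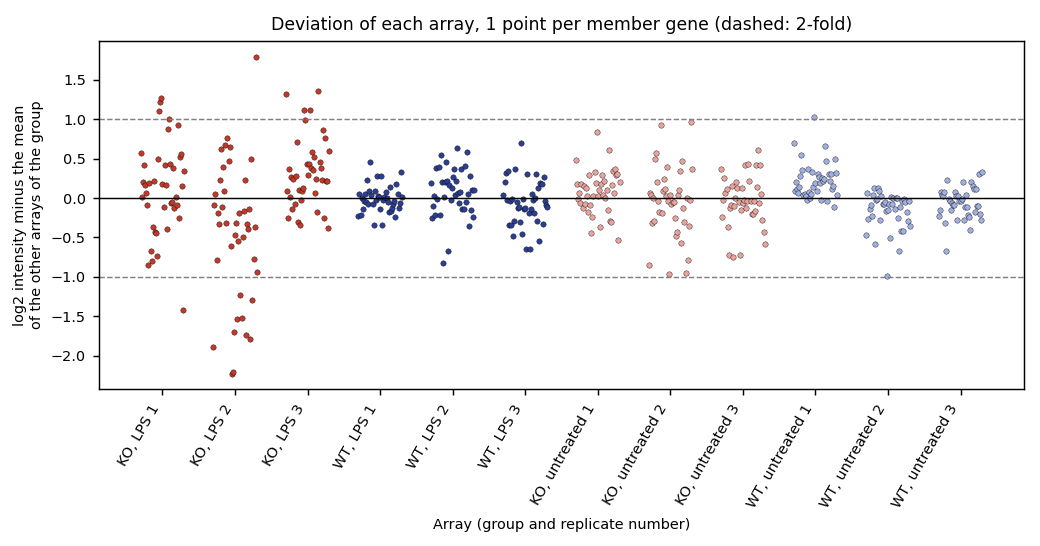
Each point is 1 of the 41 member genes on 1 array: its log2 intensity minus the mean of the other arrays of the same group (y axis), by array (x axis), with dashed lines at 2-fold. On LPS-treated knockout replicate 2, 10 members lie below the lower line and 1 above the upper line. On replicates 1 and 3 of that group 5 and 4 members lie outside the lines, while on the 9 arrays of the other groups 1 member lies outside the lines.

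In knockout cells 26 of 41 members rose with LPS, 4 fell and 11 were not called. Over all genes 21.9% rose and 23.8% fell (45.7% in either direction), and the median log2 difference was 0.64 for the members and 0.07 for all genes. In wild-type cells 20 members rose, 4 fell and 17 were not called, against 9.53% of all genes higher and 18.5% lower (28.1% in either direction), with a median of 0.48 for the members and 0.04 for all genes. Both genotypes shared 18 risen members, and 3 fell in both, namely Egr2, Klf10 and Zfp36l2. The shares of all genes that rose or fell in both were not taken. Of the 18, 10 were at least 2-fold higher in both genotypes: Fosl1, Ier3, Dusp4, Dusp16, Nr4a3, Maff, Gadd45b, Csrnp1, Plk2 and Plk3. Neither genotype had a call at Fos, Fosl2, Atf3, Klf2, Nr4a1, Nr4a2, Myc, Bhlhe40 or Per1. Klf4 alone was called in opposite directions. Without LPS-treated knockout replicate 2, 32 members rose and 4 fell in knockout. The share of all genes called in that fit was not taken, so that these counts cannot be set against one.

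**Figure D2:**
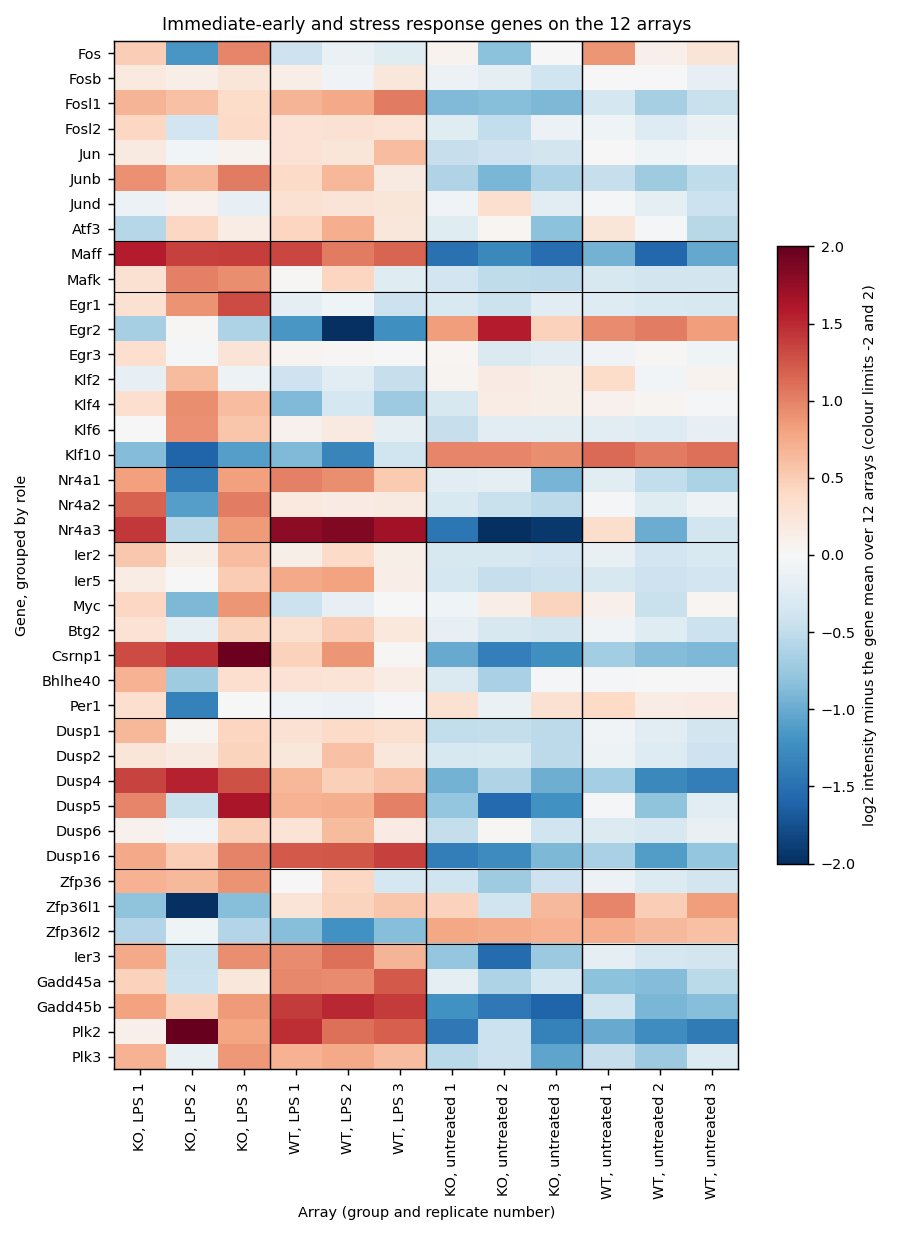
Rows are the 41 members grouped by role, columns the 12 arrays by group and replicate, and colour is log2 intensity minus the gene's mean over the 12 arrays. Maff, Gadd45b, Dusp16 and Dusp4 are high on all 6 LPS arrays, Klf10 and Zfp36l2 are low on all 6 apart from knockout replicate 2 for Zfp36l2, which lies near the gene's mean, and the Nr4a genes, Fos and Per1 are low on LPS-treated knockout replicate 2.

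The small Maf genes encode leucine-zipper proteins that bind DNA but lack a transactivation domain of their own, and that pair with larger factors such as Nrf2 and Bach. Maff read 924, 804 and 816 in LPS-treated knockout cells, against 112, 128 and 109 in untreated knockout cells. In wild type it read 785, 639.5 and 702 with LPS, against 162, 105 and 153 without. Treated and untreated arrays lay far apart in both genotypes. The log2 difference was 2.87 (SE 0.15, limma adjusted p = 1.48e-07) in knockout, the largest rise among the members there, and 2.36 (SE 0.15, limma adjusted p = 6.51e-07) in wild type. Its relative Mafk read 506, 826 and 783 with LPS, against 312, 289 and 283 without, in knockout, and 417, 554 and 346 with LPS, against 327, 318 and 318 without, in wild type. In both genotypes the treated arrays lay above the untreated ones, by a narrow margin in wild type. It rose by 1.23 (SE 0.19, limma adjusted p = 2.59e-04) in knockout and was not called in wild type, at 0.42 (SE 0.19, limma adjusted p = 0.117). The wild-type difference was called without wild-type LPS replicate 3 (0.58) or knockout LPS replicate 1.

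Promoter windows were found for 32 of the 41 members in RefSeq (build GRCm38.p6), each from 250 bases before to 50 bases after an annotated start. A cAMP response element (TGACGTCA, either strand), the site of the CREB and ATF factors that many immediate-early genes are known for, lay in a window of 4 of 32 members, and in 2.0% of all 27025 genes with a window. These 4, Maff, Dusp1, Plk2 and Btg2, were all called higher with LPS in both genotypes. So were 18 of all 41 members, with or without a window. The count among the 32 members with a window and the share of all genes called higher in both genotypes were not taken. Whether the element bears on the response was not tested. The bases before the start are shown for these 4 because they are the members that hold the whole element, in capitals, 5′ to 3′ on the strand of the gene.

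Maff (chr15:79347270-79347519, plus strand, 1 of 3 annotated starts): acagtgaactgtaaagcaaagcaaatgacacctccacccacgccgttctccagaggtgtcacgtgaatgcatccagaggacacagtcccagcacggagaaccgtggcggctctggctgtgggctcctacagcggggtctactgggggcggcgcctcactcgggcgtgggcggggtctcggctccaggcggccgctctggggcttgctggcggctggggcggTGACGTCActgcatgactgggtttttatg

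Dusp1 (chr17:26508473-26508722, minus strand): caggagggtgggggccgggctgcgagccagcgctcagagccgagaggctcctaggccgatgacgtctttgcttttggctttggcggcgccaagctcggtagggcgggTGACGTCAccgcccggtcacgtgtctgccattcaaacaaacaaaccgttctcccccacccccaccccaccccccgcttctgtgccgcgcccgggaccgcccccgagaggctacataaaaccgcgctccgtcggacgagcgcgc

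Plk2 (chr13:110394794-110395043, plus strand): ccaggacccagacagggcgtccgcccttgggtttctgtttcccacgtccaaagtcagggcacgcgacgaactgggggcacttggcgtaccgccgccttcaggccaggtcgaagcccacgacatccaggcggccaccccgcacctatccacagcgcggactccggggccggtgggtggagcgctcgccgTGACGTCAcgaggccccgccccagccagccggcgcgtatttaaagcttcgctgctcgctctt

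Btg2 (chr1:134079156-134079405, minus strand): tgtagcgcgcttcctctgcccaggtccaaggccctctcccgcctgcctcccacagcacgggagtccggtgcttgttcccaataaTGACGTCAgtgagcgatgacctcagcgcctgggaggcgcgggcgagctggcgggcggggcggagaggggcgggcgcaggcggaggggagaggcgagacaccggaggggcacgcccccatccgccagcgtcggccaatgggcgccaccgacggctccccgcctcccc

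The first base of the element lay at -29 in Maff, -143 in Dusp1, -62 in Plk2 and -166 in Btg2, counted from the annotated start. The shorter element TGACGT, which lies within the whole one, was held by 11 of 32 members and 8.4% of all genes. A κB site, by name, was held by 7 members (21.9%, against 9.6% of all genes), a serum response element, by name, by 3 (9.4% against 1.8%), an AP-1 site (TGANTCA) by 2 (6.2% against 9.0%) and an Egr site (GCGTGGGCG) by 1. Members called higher in both genotypes were 6 of those with the shorter element and 2 of those with a κB site. They were 0 of those with a serum response element, 1 with an AP-1 site and 1 with an Egr site. A gene with several annotated starts has several windows and so more room for a match. These are matches of letters in short windows and no measure of binding.

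AP-1 is a dimer of Fos and Jun family proteins, with ATF proteins as further partners. Of its 8 genes here, 4 rose in knockout (Fosb, Fosl1, Jun and Junb) and 4 in wild type (Fosl1, Jun, Junb and Jund), and none fell. Of all genes 21.9% rose and 23.8% fell in knockout, and 9.53% rose and 18.5% fell in wild type. Fosl1, which encodes a Fos relative lacking the transactivation domain of c-Fos, read 858, 799 and 692 in LPS-treated knockout cells, against 288, 295 and 287 in untreated ones. Wild-type cells read 857, 906 and 1101 with LPS, against 417, 336 and 393 without. Every treated array lay above every untreated array of its genotype, with differences of 1.43 (SE 0.11, limma adjusted p = 2.53e-06) in knockout and 1.32 (SE 0.11, limma adjusted p = 7.07e-06) in wild type. Junb, known to oppose c-Jun at some promoters, read 1855, 1550 and 2035 with LPS, against 653, 525 and 635 without, in knockout. The wild-type arrays read 1289, 1570 and 1119 with LPS, against 717, 604 and 696 without. It rose by 1.58 (SE 0.14, limma adjusted p = 5.47e-06) in knockout and by 0.97 (SE 0.14, limma adjusted p = 2.97e-04) in wild type. Jun rose by less, 0.48 in knockout and 0.41 in wild type.

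Fos, the textbook immediate-early gene, was not above rest in either genotype at 4 h by the test. It read 549.5, 176 and 774 in LPS-treated knockout cells, against 409, 221 and 389 in untreated ones, and replicate 2 was the lowest of the 6. Values in wild type were 295, 357 and 333 with LPS, against 721, 421 and 470.5 without, all treated arrays below all untreated ones. The differences were 0.36 (SE 0.45, limma adjusted p = 0.521) in knockout and -0.68 (SE 0.45, limma adjusted p = 0.296) in wild type. In the fit on the wild-type groups alone the wild-type value was called lower (SE 0.19, limma adjusted p = 0.0279). It was also called lower with array weights (limma adjusted p = 0.0369). Without LPS-treated knockout replicate 2, the knockout value was 0.99 and was called. Fosb, one of the dimmest members, rose by 0.43 in knockout and differed by 0.15 in wild type (limma adjusted p = 0.271). Jund was called in wild type alone, at 0.48 against -0.08 in knockout, a call lost in 4 of the 12 fits with 1 array removed, as without wild-type LPS replicate 1 (0.46). Fosl2 read 2438 to 4243 in LPS-treated knockout cells, against 2260 to 2926 in untreated ones, and its differences of 0.42 in knockout and 0.45 in wild type missed the threshold. Without LPS-treated knockout replicate 2 they were 0.68 and 0.45, and both were called. Atf3, a stress-induced repressor of cytokine genes, was bright in every group, from 1397 to 4099, and differed by 0.34 (SE 0.29, limma adjusted p = 0.339) in knockout and 0.58 (SE 0.29, limma adjusted p = 0.163) in wild type. Between genotypes none of the 8 was called with LPS on all arrays, beside 8.14% of all genes. Junb, at 0.46 (SE 0.14, limma adjusted p = 0.0737) with overlapping arrays, was called higher in knockout without LPS-treated knockout replicate 2 (0.56) or wild-type LPS replicate 2 (0.58), with array weights and with 75th percentile centring. Jun, at -0.315 (limma adjusted p = 0.0775), and Jund, at -0.326 (limma adjusted p = 0.197), were lower in knockout without overlap. Jun was called lower without wild-type LPS replicate 2 (-0.386), and Jund with array weights (-0.388).

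Among the zinc-finger factors, Egr2 and Klf10 lay far below rest at 4 h. Egr2 read 817, 1321 and 843 in LPS-treated knockout cells, against 2322, 3860 and 1784 in untreated ones. Wild-type levels were 578, 319 and 553 with LPS, against 2503, 2623 and 2309 without. No treated array reached an untreated one. It fell in knockout, with a log2 difference of -1.38 (SE 0.29, limma adjusted p = 0.00254), and in wild type, with -2.41 (SE 0.29, limma adjusted p = 7.75e-05), the largest fall of any member there. Klf10, named for its early induction by TGF-β, read 351, 211 and 296 with LPS, against 1251, 1255 and 1212 without, in knockout. In wild type it read 344, 256 and 483 with LPS, against 1394, 1312 and 1373 without. The untreated arrays of both genotypes lay within a narrow band, and all treated arrays lay far beneath it. Its differences were -2.15 (SE 0.21, limma adjusted p = 1.06e-05) in knockout, the largest fall there, and -1.96 (SE 0.21, limma adjusted p = 3.11e-05) in wild type.

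Egr1 and Klf4 were above rest in knockout cells at 4 h. Egr1, a growth-response factor that LPS is known to induce early, read 302, 456 and 605 in LPS-treated knockout cells, against 198, 181 and 210.2 in untreated ones. Wild-type cells read 217, 229 and 182 with LPS, against 204, 199 and 195 without. All wild-type and untreated arrays lay in a narrow range, and the treated knockout arrays lay above it and spread widely. It rose by 1.16 (SE 0.19, limma adjusted p = 5.18e-04) in knockout and differed by 0.06 (SE 0.19, limma adjusted p = 0.841) in wild type. Klf4, a factor tied to macrophage polarization, read 440.2, 668 and 534 with LPS, against 281, 387 and 379 without, in knockout. The wild-type arrays read 190.1, 274 and 212 with LPS, against 371, 362 and 343 without. Treated arrays lay above the untreated ones in knockout and below them in wild type. It rose by 0.64 (SE 0.17, limma adjusted p = 0.0105) in knockout and fell in wild type, with a difference of -0.69 (SE 0.17, limma adjusted p = 0.011). The wild-type call was lost after quantile normalization (-0.46, limma adjusted p = 0.0779) and without wild-type LPS replicate 1 (-0.57).

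Of the other Klf and Egr genes, Klf6 rose by 0.80 in knockout and differed by 0.24 in wild type, where it was not called. Klf2, a factor that restrains inflammatory genes in macrophages, differed by 0.02 in knockout and -0.50 in wild type (limma adjusted p = 0.0622). The Klf2 difference in wild type was called without LPS-treated knockout replicate 2, which enters through the spread that all groups share. It was also called in the fit on the wild-type groups alone (limma adjusted p = 0.0146), with array weights and with dim genes left out. Egr3 was dim, at 187 to 288 over all 12 arrays, and its rise of 0.35 in knockout was lost in 4 of the 12 leave-one-out fits, as without LPS-treated knockout replicate 3 (0.32).

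The 3 Nr4a genes encode orphan nuclear receptors whose activity follows their abundance. Nr4a3 read 1908, 485 and 1294 in LPS-treated knockout cells, against 261, 113 and 188 in untreated ones. Values in wild type were 2461, 2586 and 2282 with LPS, against 906, 357 and 555 without. It stood clear of rest in both genotypes, although knockout replicate 2 reached less than the other treated arrays. The rise was 2.58 (SE 0.47, limma adjusted p = 9.06e-04) in knockout, 3.15 without LPS-treated knockout replicate 2, and 2.11 (SE 0.47, limma adjusted p = 0.00508) in wild type.

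Nr4a1 and Nr4a2 were not called in either genotype, and both hung on 1 array in knockout. Nr4a1 read 1026, 219.8 and 1030 in LPS-treated knockout cells, against 496, 512 and 306 in untreated ones. Wild-type levels were 1169, 1111 and 834 with LPS, against 495, 416 and 376 without, with no overlap. Replicate 2 was the lowest of all 6 knockout arrays for this gene. The differences were 0.53 (SE 0.48, limma adjusted p = 0.381) in knockout and 1.27 (SE 0.48, limma adjusted p = 0.0692) in wild type, and without LPS-treated knockout replicate 2 they were 1.27 in each genotype and called. The wild-type difference was also called in the fit on the wild-type groups alone, with array weights, after quantile normalization and with 75th percentile centring. Nr4a2 read 1115, 229 and 1002 with LPS, against 402, 363 and 344 without, in knockout. In wild type it read 568, 555 and 558 with LPS, against 481, 419 and 459 without. Again replicate 2 lay lowest and the other treated knockout arrays highest. The differences of 0.78 and 0.31 became 1.52 and 0.31 without LPS-treated knockout replicate 2, both called.

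All 6 MAP kinase phosphatase genes rose in knockout, and 5 of 6 rose in wild type, beside 21.9% and 9.53% of all genes. Their proteins remove phosphate from ERK, JNK and p38. Dusp4, which encodes a nuclear member, read 913, 1040 and 864 in LPS-treated knockout cells, against 187, 235 and 183 in untreated ones. Wild-type cells read 568, 499.6 and 534 with LPS, against 224, 147 and 137 without. The treated groups did not overlap the untreated ones, nor each other. It rose by 2.22 (SE 0.17, limma adjusted p = 1.63e-06) in knockout and 1.69 (SE 0.17, limma adjusted p = 1.74e-05) in wild type. Dusp16, whose product acts on JNK and p38, read 2772, 2300 and 3284 with LPS, against 631, 686 and 882 without, in knockout. The wild-type arrays read 3852, 3893 and 4224 with LPS, against 1049, 753 and 964 without. It rose by 1.93 (SE 0.16, limma adjusted p = 3.29e-06) in knockout and 2.13 (SE 0.16, limma adjusted p = 2.58e-06) in wild type. Between treated genotypes Dusp16 was lower in knockout without overlap, at -0.532 (SE 0.16, limma adjusted p = 0.066), and was not called. It was called lower after quantile normalization, with the replicate number as a block, with array weights and in 2 of the 12 leave-one-out fits.

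Dusp5, which encodes a nuclear phosphatase of ERK, varied more. It read 1181, 442 and 1854 in LPS-treated knockout cells, against 350.3, 204 and 259 in untreated ones. Values in wild type were 974, 989 and 1211 with LPS, against 581, 344 and 516 without. Groups did not overlap within either genotype, but knockout replicate 2 lay far below its group. The rise was 1.90 (SE 0.41, limma adjusted p = 0.00306) in knockout, 2.48 without that array, and the wild-type difference of 1.17 (SE 0.41, limma adjusted p = 0.0561) was not called. The same wild-type value was called without LPS-treated knockout replicate 2 (limma adjusted p = 0.00333), whose spread all groups share. Dusp1, known as a brake on p38 in LPS-treated macrophages, was among the brightest members, at 2507 to 3835 in LPS-treated knockout cells and 2995 to 3175 in LPS-treated wild-type cells. It rose by 0.87 in knockout and 0.56 in wild type. Dusp2, a dim gene, rose by 0.67 and 0.61, and Dusp6, a cytoplasmic phosphatase of ERK, by 0.45 and 0.61. The knockout call of Dusp6 was lost with the replicate number within each genotype as a block (limma adjusted p = 0.0598) and in 8 of the 12 leave-one-out fits.

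The 3 genes of CCCH zinc-finger proteins that bind AU-rich mRNA and bring about its decay did not move together. Zfp36, which encodes tristetraprolin, read 3630, 3542 and 4188 in LPS-treated knockout cells, against 1712, 1376 and 1686 in untreated ones. Wild-type levels were 2240, 2987 and 1771 with LPS, against 2079, 1853 and 1738 without. Treated arrays stood above rest in knockout, while in wild type the groups overlapped. It rose by 1.25 (SE 0.16, limma adjusted p = 8.91e-05) in knockout and was not called in wild type, at 0.28 (SE 0.16, limma adjusted p = 0.248), where it was called without wild-type LPS replicate 3 (0.46).

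Zfp36l1 fell in knockout and Zfp36l2 in both genotypes. Zfp36l1 read 622, 178 and 604 in LPS-treated knockout cells, against 1496, 826 and 1697 in untreated ones. In wild type it read 1304, 1490 and 1593 with LPS, against 2138, 1528 and 1951 without, and these 2 groups overlapped. It fell in knockout, with a difference of -1.66 (SE 0.41, limma adjusted p = 0.00691), which was -1.06 without LPS-treated knockout replicate 2, and the wild-type difference was -0.35 (SE 0.41, limma adjusted p = 0.575). Zfp36l2 read 1932, 2730 and 1929 with LPS, against 4938, 4814 and 4677 without, in knockout. Wild-type cells read 1596, 1244 and 1595 with LPS, against 4801, 4525 and 4335 without. The untreated arrays were nearly level, and the treated ones all lay far below them. It fell in both, with differences of -1.15 (SE 0.14, limma adjusted p = 4.10e-05) in knockout and -1.63 (SE 0.14, limma adjusted p = 5.44e-06) in wild type.

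The promoters of Zfp36 and Zfp36l1 are shown because these related genes moved in opposite directions in knockout cells and against wild type. Zfp36 held a serum response element at -58 and Zfp36l1 an AP-1 site at -129, in capitals, and neither window held the other's site. Such sites lay in 1.8% and 9.0% of all genes with a window. The genes were picked for their responses, and Zfp36l2, which fell in both genotypes, is not shown. Whether the sites bear on the responses was not tested.

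Zfp36 (chr7:28379229-28379478, minus strand): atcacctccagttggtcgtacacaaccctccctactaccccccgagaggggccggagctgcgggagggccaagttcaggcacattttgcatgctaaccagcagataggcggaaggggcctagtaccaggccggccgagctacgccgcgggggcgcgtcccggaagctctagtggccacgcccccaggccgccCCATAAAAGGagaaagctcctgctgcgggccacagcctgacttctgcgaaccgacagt

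Zfp36l1 (chr12:80113014-80113263, minus strand): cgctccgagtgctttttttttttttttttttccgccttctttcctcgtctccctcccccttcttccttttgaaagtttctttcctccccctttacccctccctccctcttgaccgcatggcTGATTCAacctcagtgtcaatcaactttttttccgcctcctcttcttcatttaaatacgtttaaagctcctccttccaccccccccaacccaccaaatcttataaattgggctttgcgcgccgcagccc

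Of the 5 stress and cell-cycle genes 4 rose in knockout and 5 in wild type, and none fell. The shares of all genes were 21.9% higher and 23.8% lower in knockout, and 9.53% higher and 18.5% lower in wild type. Gadd45b, which encodes a stress sensor that activates a kinase upstream of p38 and JNK, read 2840, 2238 and 2937 in LPS-treated knockout cells, against 701, 602 and 536 in untreated ones. The wild-type arrays read 4279, 4599 and 4307 with LPS, against 1238, 859 and 897 without. The rise was 2.12 (SE 0.15, limma adjusted p = 1.17e-06) in knockout and 2.16 (SE 0.15, limma adjusted p = 1.53e-06) in wild type. Gadd45a, a target of p53 in DNA damage, read 1035, 561 and 886 with LPS, against 661, 490.0 and 591 without, in knockout. Values in wild type were 1471, 1455 and 1762 with LPS, against 427, 415 and 519 without. The groups overlapped in knockout and stood far apart in wild type. It rose by 1.79 (SE 0.20, limma adjusted p = 4.13e-05) in wild type and was not called in knockout, at 0.47 (SE 0.20, limma adjusted p = 0.069). With the replicate number within each genotype as a block, the same knockout value was called (limma adjusted p = 0.00328), and it was 0.73 and called without LPS-treated knockout replicate 2.

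Plk2 and Plk3 encode polo-like kinases of the stress response and cell cycle. Plk2 read 692, 3047 and 1117 in LPS-treated knockout cells, against 241, 480.0 and 253 in untreated ones. Wild-type levels were 1800, 1384 and 1485 with LPS, against 322, 273 and 244 without. On this gene knockout replicate 2 was high, with and without LPS. The rise was 2.11 (SE 0.43, limma adjusted p = 0.00202) in knockout, 1.51 without LPS-treated knockout replicate 2, and 2.48 (SE 0.43, limma adjusted p = 0.00104) in wild type. Plk3 read 1467, 814 and 1645 with LPS, against 622, 672 and 433 without, in knockout. In wild type it read 1468, 1529 and 1380 with LPS, against 654, 545 and 749 without. It rose by 1.15 in knockout and 1.18 in wild type. Ier3, which encodes a regulator of cell survival, read 2261, 978 and 2527 with LPS, against 779, 459 and 799 without, in knockout. Wild-type cells read 2558, 2852 and 2147 with LPS, against 1159, 1056 and 1032 without. Knockout replicate 2 was again lowest in both treatments. Ier3 rose by 1.43 (SE 0.31, limma adjusted p = 0.0031) in knockout and 1.21 (SE 0.31, limma adjusted p = 0.0121) in wild type.

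Among the other regulators of transcription, Csrnp1 rose most. This gene, which encodes a cysteine- and serine-rich nuclear protein, read 1759, 1930 and 2762 in LPS-treated knockout cells, against 353, 275 and 303 in untreated ones. The wild-type arrays read 979, 1304 and 720.0 with LPS, against 437, 388 and 381 without. It rose in both genotypes, and the treated knockout arrays all lay above the treated wild-type arrays. The rise was 2.77 (SE 0.21, limma adjusted p = 1.63e-06) in knockout and 1.28 (SE 0.21, limma adjusted p = 6.36e-04) in wild type. Ier2 rose by 0.77 and 0.48, Ier5 by 0.64 and 0.94, and Btg2, an antiproliferative gene, by 0.47 and 0.59, in knockout and wild type in that order. The knockout call of Btg2 was lost in 4 of the 12 leave-one-out fits, as without LPS-treated knockout replicate 3 (0.34). Myc, the growth regulator, was not called, at -0.03 and -0.09, with limma adjusted p of 0.95 and 0.877. Bhlhe40, a helix-loop-helix repressor, read 1018 to 2698 in LPS-treated knockout cells, against 1071 to 1636 in untreated ones, and was not called in either genotype. Its knockout difference was 0.43, and 0.84 and called without LPS-treated knockout replicate 2. The circadian gene Per1 was not called, at -0.50 (SE 0.32, limma adjusted p = 0.226) in knockout and -0.32 (SE 0.32, limma adjusted p = 0.512) in wild type. The knockout value of Per1 was 0.01 without LPS-treated knockout replicate 2, and -0.83 and called without replicate 1 of that group. Its wild-type value was called lower in the fit on the wild-type groups alone (limma adjusted p = 0.026).

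**Figure D3:**
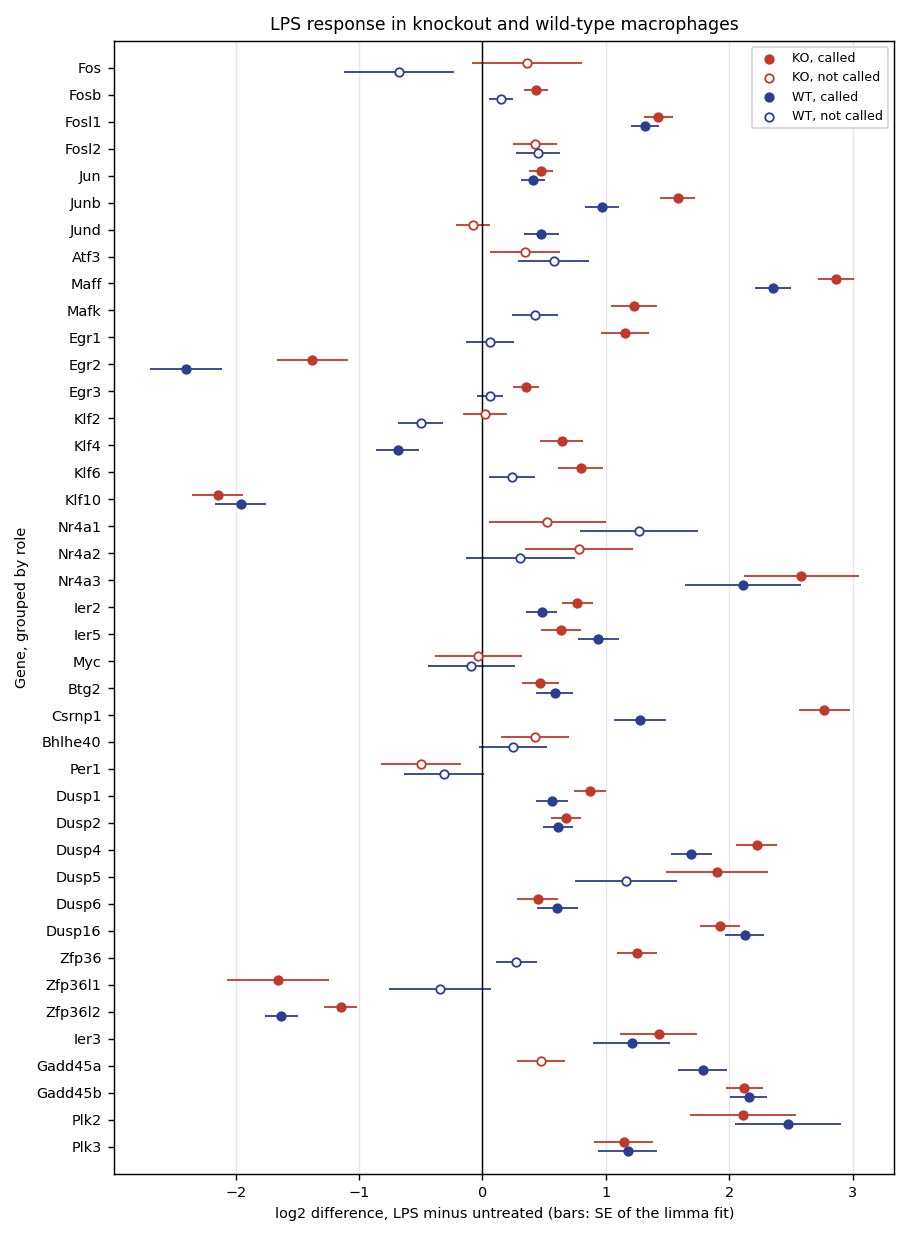
Log2 difference between LPS-treated and untreated cells (x axis, with bars for the SE of the limma fit) for each member (y axis, grouped by role), in knockout (red) and wild type (blue), filled where called. Maff lies at 2.87 and 2.36 and Klf10 at -2.15 and -1.96 in knockout and wild type, Klf4 has filled points on both sides of 0, and Csrnp1 lies at 2.77 in knockout and 1.28 in wild type.

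Levels in LPS-treated knockout cells were set against those in LPS-treated wild-type cells. Loss of IκBζ and other differences between these samples, such as in the mice used, cannot be told apart here. Of the 41 members 8 were higher and 3 lower in knockout, against 3.28% higher and 4.87% lower of all genes (8.14% in either direction), with a median difference of -0.09 for the members and -0.01 for all genes. The higher genes were Klf4, Egr1, Egr2, Csrnp1, Dusp4, Mafk, Zfp36 and Zfp36l2, so that 3 of 7 zinc-finger factors were higher and none lower. The lower ones were Zfp36l1, Gadd45a and Gadd45b. This comparison uses the same treated arrays as the LPS responses above, so that their values are not independent of each other.

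The largest of these differences upward was that of Klf4, at 1.28 (SE 0.17, limma adjusted p = 0.00142), followed by Csrnp1 at 1.12 (SE 0.21, limma adjusted p = 0.0081), Egr1 at 1.07 (SE 0.19, limma adjusted p = 0.00687) and Egr2 at 1.05 (SE 0.29, limma adjusted p = 0.048). Dusp4 was higher by 0.81 (SE 0.17, limma adjusted p = 0.0127). In these 5 genes every knockout array read above every wild-type array. Zfp36 was higher by 0.73 (SE 0.16, limma adjusted p = 0.0196), Mafk by 0.68 (SE 0.19, limma adjusted p = 0.0462), with overlapping arrays, and Zfp36l2 by 0.56 (SE 0.14, limma adjusted p = 0.0269). At Egr2 and Zfp36l2, which LPS lowered in both genotypes, higher means that the knockout level lay nearer to rest. Downward, Zfp36l1 differed by -1.84 (SE 0.41, limma adjusted p = 0.0191), Gadd45a by -0.96 (SE 0.20, limma adjusted p = 0.0132) and Gadd45b by -0.73 (SE 0.15, limma adjusted p = 0.0131), without overlap between genotypes. Among genes that were not called, Nr4a3 read lower on all 3 treated knockout arrays than on any treated wild-type array, with a difference of -1.20 (SE 0.47, limma adjusted p = 0.149), which was -0.64 without LPS-treated knockout replicate 2.

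Several of these calls depended on single arrays. For the other fits given here, the share of all genes called was not taken. The count of 8 higher and 3 lower members was 4 and 2 without wild-type LPS replicate 1 or without wild-type LPS replicate 3, and 5 and 4 without LPS-treated knockout replicate 3. Without LPS-treated knockout replicate 2 it was 9 and 3, with Egr2, Zfp36l2 and Mafk no longer called and Junb (0.56), Ier2 (0.38), Myc (0.84) and Nr4a2 (0.92) called higher in knockout. Zfp36l1 was then at -1.25. In a fit on the 6 treated arrays alone, which has fewer residual degrees of freedom, 2 higher (Klf4 and Dusp4) and 1 lower (Gadd45b) were called. With LPS-treated knockout replicate 2 and wild-type LPS replicate 3 both left out, 3 higher and none lower were called, namely Klf4, Csrnp1 (0.96) and Nr4a2 (0.91). Klf4, Csrnp1, Egr1, Dusp4 and Gadd45b kept their calls in each of the 12 leave-one-out fits, while Egr2 and Mafk lost theirs in 10 of them, at values from 0.78 to 1.21 and from 0.52 to 0.68. The call of Zfp36l2 was lost in 4 of them, as without LPS-treated knockout replicate 2 (0.39), and that of Zfp36 in 3. Zfp36l1 lost its call without wild-type LPS replicate 1 (-1.92) or replicate 3 (-1.78), and Gadd45a without wild-type LPS replicate 3 (-0.87).

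**Figure D4:**
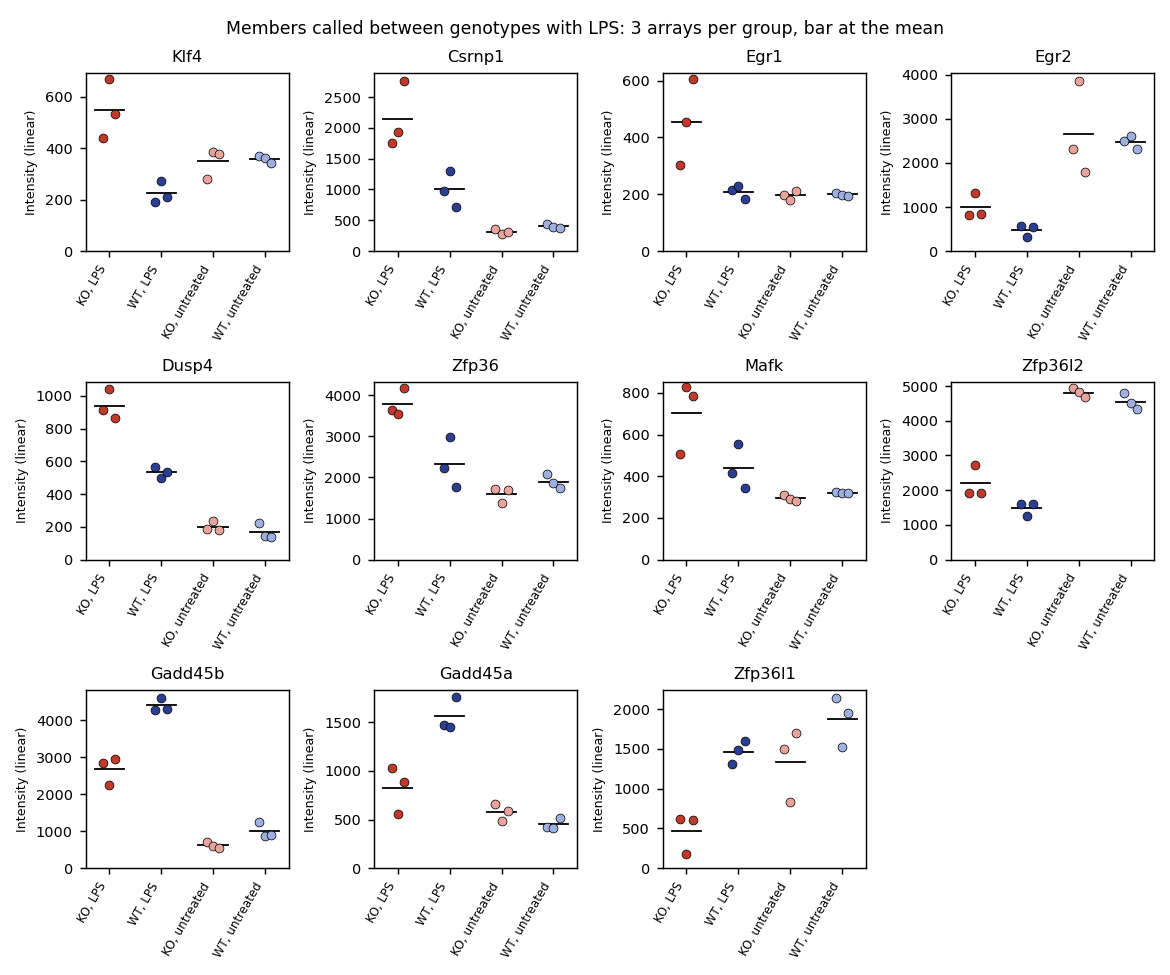
Linear intensity (y axis, from 0) of the 11 members called between genotypes with LPS, for the 4 groups (x axis) with 1 point per array and a bar at the mean. The LPS-treated knockout points of Klf4 (440.2 to 668) lie above those of wild type (190 to 275). Those of Gadd45b (2238 to 2937) lie below (4279 to 4599). The untreated groups overlap at Klf4. At Gadd45b the untreated knockout points (536 to 701) also lie below the untreated wild-type points (859 to 1238).

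In untreated cells 0 of 41 members were called between genotypes by limma, as against 0.0351% of all genes higher, 0.0401% lower and 0.0752% in either direction, and 5 had an unadjusted p under 0.05, as did 1731 of all 19938 genes. These 5 were chosen after their values were seen and were all lower in knockout: Gadd45b (-0.69), Jun (-0.38), Nr4a3 (-1.67), Fosl1 (-0.39) and Ier3 (-0.71). In each of them every untreated knockout array lay below every untreated wild-type array, which adds nothing to the p by which they were picked. Their limma adjusted p ran from 0.165 to 0.557, so that none passed the test. Klf4 and Egr1, higher in knockout with LPS, differed by -0.05 and -0.02 at rest.

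Whether a response differed between genotypes was tested as the knockout response minus the wild-type response. It was called for 2 of 41 members, both positive, against 0.301% of all genes positive and 0.446% negative (0.747% in either direction). Klf4 differed by 1.33 (SE 0.24, limma adjusted p = 0.0361), its response being positive in knockout and negative in wild type. Csrnp1 differed by 1.49 (SE 0.29, limma adjusted p = 0.0465), with a rise in both genotypes that was larger in knockout. Each call was lost in most of the 12 leave-one-out fits, Klf4 in 8 and Csrnp1 in 10, with values from 1.18 to 1.48 and from 1.28 to 1.71. Gadd45a was not called, at -1.31 (SE 0.28, limma adjusted p = 0.0659), nor was Zfp36, at 0.98 (SE 0.23, limma adjusted p = 0.0893). Egr1, at 1.09 (SE 0.27, limma adjusted p = 0.108), and Zfp36l1, at -1.31 (SE 0.58, limma adjusted p = 0.371), missed the threshold too. With the replicate number within each genotype as a block these 4 were called as well, at limma adjusted p of 0.00409, 0.0355, 0.0493 and 0.0425, which made 4 positive and 2 negative calls. Without LPS-treated knockout replicate 2, Nr4a2 (1.21) and Gadd45a (-1.05) were called, Klf4 was still called (1.18) and Csrnp1 was not (1.56, limma adjusted p = 0.054). For the remaining members a difference between genotypes was not shown, which does not show that they responded alike.

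Genes upstream of the members were read from a list of kinases and of the factors they act on, of which 20 of 24 were measured. In knockout 6 rose and 3 fell with LPS, in wild type 5 rose and 2 fell. Over all genes 21.9% rose and 23.8% fell in knockout, and 9.53% rose and 18.5% fell in wild type. The counts of risen genes lay above those shares and the counts of fallen genes below them. On so short a list this was not tested. Mapk8, which encodes JNK, rose by 0.99 in knockout and 1.06 in wild type, and Crem, a factor of the cAMP response element whose short forms repress, by 1.28 and 1.00. Between genotypes with LPS 1 was higher and 2 were lower, beside 3.28% and 4.87% of all genes. Srf, the factor of the serum response element, read 645, 410.0 and 605 in LPS-treated knockout cells, against 868, 776 and 1045 in wild-type ones, a difference of -0.71 (SE 0.17, limma adjusted p = 0.0261). Its partner Elk1 read 514, 406 and 497 in knockout, against 714, 648 and 851 in wild type, a difference of -0.64 (SE 0.12, limma adjusted p = 0.00938). All knockout arrays lay below all wild-type arrays at both genes. Mapk9, which encodes another JNK, was higher by 0.55.

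Family relatives of the members that were not on the list moved both ways, with 35 of 36 measured. In knockout 13 rose and 7 fell with LPS, beside 21.9% and 23.8% of all genes. In wild type 8 rose and 6 fell, beside 9.53% and 18.5%. Dusp8, a phosphatase of JNK and p38, read 742, 912 and 894 in LPS-treated knockout cells, against 432, 427 and 479.5 in LPS-treated wild-type cells. Untreated cells read 205, 201 and 180.5 in knockout, against 212, 209 and 156 in wild type. It rose in both genotypes and was higher in treated knockout cells by 0.93 (SE 0.12, limma adjusted p = 0.00134), and its responses differed by 0.89 (SE 0.17, limma adjusted p = 0.0472). Batf, a partner of Jun proteins, read 159, 182 and 187 in treated knockout cells, against 369, 355 and 503 in treated wild-type cells, a difference of -1.20 (SE 0.13, limma adjusted p = 4.37e-04), with a difference of responses of -0.96 (SE 0.19, limma adjusted p = 0.0472). Batf2, an interferon-inducible relative, was higher by 1.90 (SE 0.39, limma adjusted p = 0.0122), and wild-type replicates 2 and 3 were far apart at this gene (891 and 220.2). Klf5 and Mafg were lower and Klf3 was higher. Dusp3 fell in both genotypes, with a difference of -1.84 in wild type. Bhlhe41, a relative of Bhlhe40, read 117, 1094 and 84.6 in LPS-treated knockout cells, against 711, 1589 and 723 in untreated ones, replicate 2 being the highest both times. Wild-type levels were 96.2, 79.1 and 117 with LPS, against 638, 484 and 369.7 without. It fell in both genotypes, with differences of -2.08 (SE 0.74, limma adjusted p = 0.0384) in knockout and -2.33 (SE 0.74, limma adjusted p = 0.0343) in wild type. Of these 35 genes 0 were called by limma between untreated groups, where 7 had an unadjusted p under 0.05, beside the 1731 of all genes.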

How the data were processed

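Per the submitters' processing notes, the authors summarised the arrays with RMA in Affymetrix Expression Console 1.1. The deposited table gives 1 linear intensity for each of 35556 probe sets on each array, between 6.96 and 22642. No source used here names settings of that step or a genome build. Values were turned into log2 with nothing added. A single symbol was listed in the platform annotation for 21789 probe sets, and the one with the highest mean was kept for each of 19938 genes.

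Differences were fitted with limma 3.58.1 in R 4.3.3 (lmFit and eBayes, two-sided) over all genes and 12 arrays with 4 group means, and adjusted by Benjamini-Hochberg over all genes. The method was tested on simulated data. The number of arrays limits the precision. The members and lists were chosen with earlier results of these data known. Full values are given for members called with at least a 2-fold change or called between genotypes. From the other lists some of the called genes with the largest differences are named. Some further values of members were added after the data were seen.

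Titles number replicates 1 to 3 in every group. Deviations of same-numbered arrays from their group means correlated across genes at 0.322 to 0.568 between both knockout groups and at -0.07 to 0.359 between both wild-type groups, so that the numbers paired arrays in knockout alone. Alternatives were other scalings, a filter on dim genes, a pseudocount of 16, robust estimation with a trend on intensity, weights per array, all probe sets, replicate blocks, fits on the groups compared, and leaving out arrays. RefSeq promoter windows were searched on both strands.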

Additional observations from a re-analysis of the deposited data

Results flagged for a closer look

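The LPS responses of 2 members differed between genotypes by the test of the difference itself. At Klf4 the knockout response minus the wild-type response was 1.33, with a rise on all 3 treated knockout arrays and a fall on all 3 treated wild-type arrays relative to the untreated arrays of the same genotype. At Csrnp1 it was 1.49, with a rise on all 3 treated arrays of each genotype. Each call was lost in most of the leave-one-out fits, and that of Csrnp1 also with the replicate number as a block (limma adjusted p = 0.0895).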

How the results depend on the processing

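No called member value changed direction under any of the 23 settings. Of 4592 member values under these settings, 4374 kept their side of the threshold, 109 lost a call and 109 gained one. Counts are of members called higher and lower, and for fits with arrays left out the share of all genes called was not taken. Leaving out 1 array at a time gave 23 to 32 higher and 4 to 5 lower for the knockout response, 17 to 24 and 3 to 5 for the wild-type response, 4 to 9 and 2 to 4 between treated genotypes, 0 and 0 between untreated genotypes, and 0 to 3 and 0 to 1 for the difference of responses. In fits on the groups compared, 7 members were lower in the wild-type response, Fos, Klf2 and Per1 among them. Such fits gave 2 higher and 1 lower between treated genotypes. With the replicate number as a block over all arrays, 5 were lower between treated genotypes, and the difference of responses gave 1 and 1. With a replicate block within each genotype it gave 4 and 2, and that block, added after seeing the data, changed no call that is not named beside its gene except Fosl2 (gained in both genotypes) and, in wild type, Dusp5 and Klf2 (gained). Array weights gave 6 lower between treated genotypes and 1 lower for the difference of responses. Log2 of intensity plus 16 gave 1 higher for that difference. Leaving out knockout LPS replicate 2 and wild-type LPS replicate 3 together, also added after seeing the data, gave 3 and 0 between treated genotypes and 1 higher for the difference of responses. Centring on the 75th percentile over genes gave a median response over genes of 0.35 in knockout and 0.23 in wild type and called 30 and 4 members in knockout and 27 and 4 in wild type. The share of higher calls over all genes then was 80.2% in knockout and 77.5% in wild type, against 47.9% and 34% as deposited, and 56.3% against 40.2% between treated genotypes. After quantile normalization it was 47.8% in wild type. For these members the rises are therefore relative to the scaling used. Each had 1 probe set, so that no other probe set could be compared. Where causes are not named, the cause was not tested.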
